A study of Mus musculus with 12 samples.

Results

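The genes described here are 39 genes of cholesterol and fatty acid metabolism, chosen by name for their textbook roles, without a threshold on measured values but with earlier results of these data known. They comprise 19 genes of sterol synthesis, 6 of sterol sensing and regulation, 6 of fatty acid synthesis, 5 of cholesterol efflux and its nuclear receptors, and 3 of cholesterol esterification and lysosomal export. All 39 were found among the 35896 mouse genes with a transcript in the deposited tables, and all 39 were among the 12052 genes with enough counts to be tested. They were measured in whole uteri of wild-type Swiss Webster females, an outbred stock, at an age of 8 to 12 weeks. The 4 groups were proestrus (replicates 1, 2 and 3), estrus (3, 4 and 5), metestrus (5, 6 and 7) and diestrus (3, 4 and 5), with 1 uterus per library and no treatment named in the labels. The labels did not say how the stage was assigned or at what time of day tissue was taken. RNA was profiled by 3' TagSeq, which reads a fragment near the 3' end of each polyadenylated transcript.

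Cells make cholesterol from acetyl-CoA through the mevalonate pathway. The transcription factor SREBP2, encoded by Srebf2, drives these genes when sterols in the endoplasmic reticulum are low, and its escort SCAP and the retention proteins INSIG1 and INSIG2 hold it back when sterols are plentiful. Excess cholesterol gives rise to oxysterols, which activate the liver X receptors (LXR, genes Nr1h2 and Nr1h3) and with them the exporters ABCA1 and ABCG1 and the ubiquitin ligase MYLIP. Estrogen, which rises in proestrus, is known to make the uterine epithelium of rodents proliferate.

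Promoters of 4 genes that moved in the 2 directions are shown first as examples. The SREBP and NF-Y boxes that regulate sterol genes are short and can be read in them where present. Of the promoters searched among the 39 genes, only that of Hmgcs1 held the SREBP box searched for, and that of Abca1 held neither box. The RefSeq table on GRCm38.p6 held a window of 300 bases, from 250 before to 50 after the start site, for 31 of the 39 genes; the other 8 (Fdps, Fdft1, Sqle, Stard4, Scd1, Scd2, Abcg1 and Npc1) had no entry. The 4 windows below are each the bases upstream of both the RefSeq and the GENCODE start, 5' to 3' on the gene's strand, with capitals for the core of a sterol regulatory element (TCACNCCAC), for the NF-Y box (CCAAT, read as ATTGG on the opposite strand) and for the E-box (CACGTG). Hmgcs1, an early synthase of the mevalonate pathway, lies on the plus strand at chr13:119690101-119690350. Mvk, mevalonate kinase, is on the plus strand at chr5:114444019-114444268. Abca1 is on the minus strand at chr4:53159896-53160145, and Mylip on the plus strand at chr13:45389492-45389741.
Hmgcs1: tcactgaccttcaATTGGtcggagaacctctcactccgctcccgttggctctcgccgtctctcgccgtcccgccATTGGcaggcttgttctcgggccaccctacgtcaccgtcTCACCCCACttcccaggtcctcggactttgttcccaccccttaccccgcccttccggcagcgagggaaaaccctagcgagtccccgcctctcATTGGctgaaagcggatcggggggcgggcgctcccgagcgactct
Mvk: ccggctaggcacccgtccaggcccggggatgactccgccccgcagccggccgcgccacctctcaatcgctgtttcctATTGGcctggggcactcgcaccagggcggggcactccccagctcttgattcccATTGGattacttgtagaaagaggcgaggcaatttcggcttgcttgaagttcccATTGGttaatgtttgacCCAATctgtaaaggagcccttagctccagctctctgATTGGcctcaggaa
Abca1: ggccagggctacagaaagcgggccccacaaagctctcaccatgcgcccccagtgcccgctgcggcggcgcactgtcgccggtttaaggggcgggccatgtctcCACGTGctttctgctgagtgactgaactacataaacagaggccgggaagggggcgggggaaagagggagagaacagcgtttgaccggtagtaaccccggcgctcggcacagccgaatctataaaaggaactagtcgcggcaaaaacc
Mylip: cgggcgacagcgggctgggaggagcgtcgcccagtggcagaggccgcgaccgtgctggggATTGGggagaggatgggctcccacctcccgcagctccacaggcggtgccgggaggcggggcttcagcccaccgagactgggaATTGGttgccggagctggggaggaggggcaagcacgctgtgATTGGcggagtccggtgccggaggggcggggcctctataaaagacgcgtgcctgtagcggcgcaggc

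Both strands were searched in the whole window, and the 3 motifs do not overlap one another in these windows. Some genes, such as Dhcr7, Scap and Srebf1, had more than 1 window. A match in any of them counted, so the counts of windows below are counts of genes. The sterol regulatory element core was found in 1 of 31 windows, that of Hmgcs1, where it begins 137 bases before the start site. Of all 27025 genes in the table, 1.44% held it, and of the 9288 of them that were tested here, 1.29%. The NF-Y box, which is bound by a factor that works beside SREBP at many sterol genes, was found in 24 of 31 windows. It was in 41.1% of all genes and 42.8% of tested genes. By role it was in 15 of 16 windows of sterol synthesis genes, 4 of 5 of the regulators, 2 of 4 of the fatty acid genes, 1 of 4 of the efflux and receptor genes (Mylip) and 2 of 2 of the esterification and lysosomal genes. The E-box was in 6 of 31 windows, Abca1, Dhcr7, Hsd17b7, Insig1, Sc5d and Scap, and in 8.09% of all genes and 11.8% of tested genes. Exact palindromic estrogen response elements (GGTCA, 3 bases, TGACC) and exact LXR direct repeats (AGGTCA, 4 bases, AGGTCA) were found in none of the 31 windows. They were in 0.074% and 0.0148% of all genes. Sites that differ from these letters in any base were not searched for. Exact matches are so rare that their absence here does not show that a window lacks a working site. These matches are descriptions of letters in a short window, and a site outside it would not be seen.

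Depth was modest. Libraries held 1641185 to 2184941 estimated counts assigned to genes, and levels are given as CPM, counts relative to library size, scaled with TMM factors, on which 3 counts, the limit that a count of 0 allows, stand for 1.36 to 1.88 CPM. This floor covers counting error only, while the SD and SE values below include the spread between uteri. Smooth muscle, stroma and epithelium markers were present in every library, while the defining adipocyte markers Adipoq, Plin1, Cidec and Lep had stage means of at most 1.01 CPM. The whole list of 10 adipocyte markers, which also holds genes of other cells such as Pnpla2, summed to 33.9 to 81.8 CPM per library, and 1 of its 2 tested genes was called, lower in diestrus than in estrus. In whole tissue, fewer cells of a type and less RNA per cell cannot be told apart. Over all genes tested, 23.2% passed the F test over the 4 stages (edgeR quasi-likelihood, Benjamini-Hochberg adjusted p under 0.05), and 24 of the 39 genes did. By role these were 13 of 19 sterol synthesis genes, 4 of 6 regulators, 1 of 6 fatty acid genes, 3 of 5 efflux and receptor genes and 3 of 3 esterification and lysosomal genes. Proestrus had the highest mean in 18 of the 19 sterol synthesis genes, against 24.9% of all tested genes, and the exception was Tm7sf2, which was highest in estrus.

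**Figure D1:**
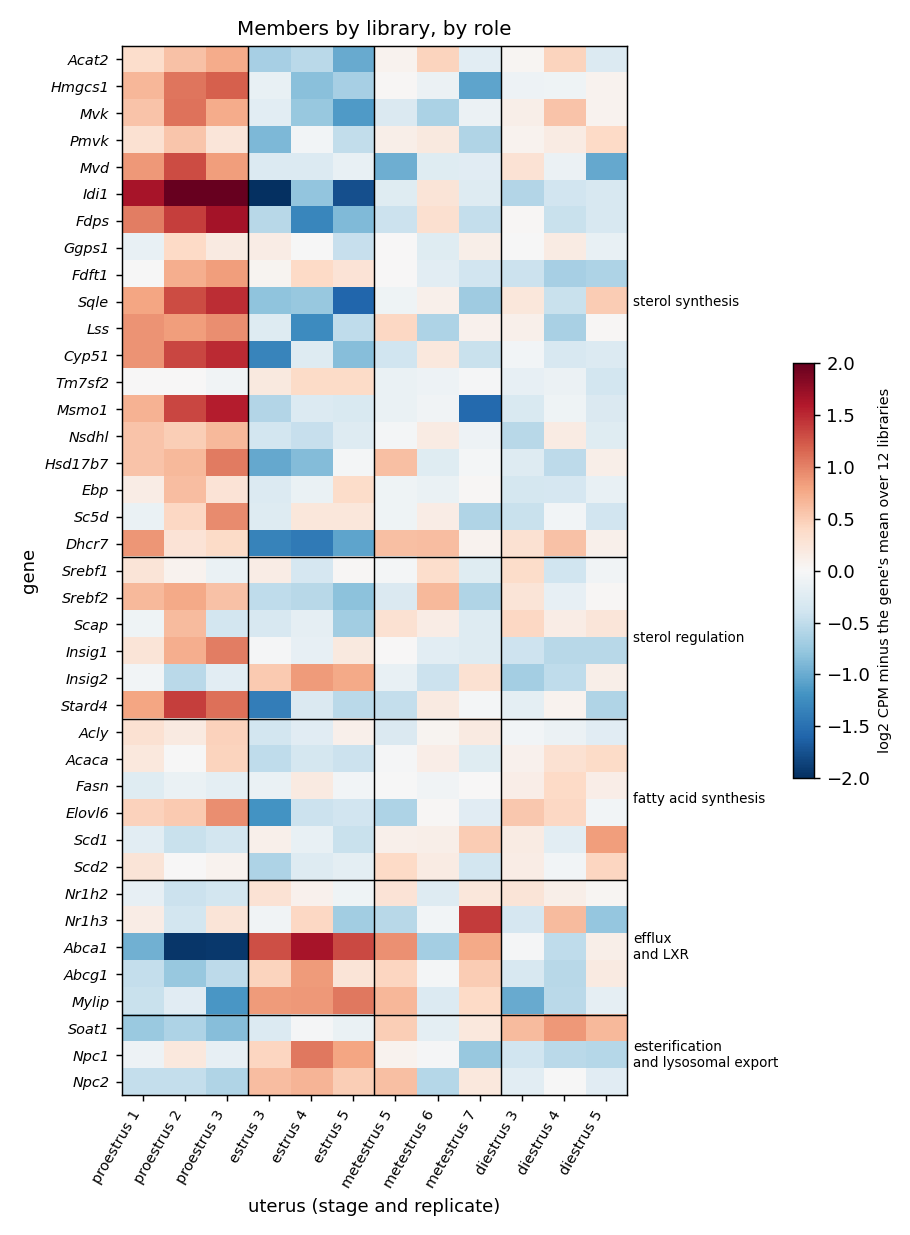
Each row is 1 of the 39 genes, grouped by role, and each column 1 uterus; colour is log2 CPM minus the gene's mean over the 12 libraries, and values beyond the ends of the scale take the end colour. Most sterol synthesis genes are red in the 3 proestrus columns, while Abca1, Abcg1, Mylip and Npc2 are blue there and red in estrus.

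Among the 39 genes, estrus against proestrus gave the most calls. Sterol synthesis genes fell and efflux and lysosomal genes rose: 18 of the 39 genes were lower in estrus and 7 were higher, where 7.46% of all genes tested were lower and 9.67% were higher. Of the 19 sterol synthesis genes 13 fell, none rose and 6 did not pass the test. Their median log2 fold change was -1.52, with a range from -3.96 to 0.36, while the median over all genes tested was 0.02. For every call among the 39 genes, in all comparisons, the values of the 3 uteri of one stage did not overlap those of the other. The calls were made from these same values. Absence of overlap was not limited to calls. In estrus against proestrus it held for 30 of the 39 genes, with 25 called, and in diestrus against metestrus for 7, with 0 called. Its share over all genes tested was not counted, so absence of overlap, here and below, only describes the values and adds no support to a call.

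The early, isoprenoid part of the pathway held the steepest change. Idi1, the isomerase that converts isopentenyl to dimethylallyl diphosphate (chr13:8885501-8892451, plus strand), measured 29.4, 43.3 and 47.4 CPM in proestrus and 1.23, 4.54 and 1.82 CPM in estrus. It measured 7.21, 10.7 and 7.10 CPM in metestrus and 5.44, 6.38 and 6.74 CPM in diestrus. Every proestrus uterus thus lay above all 9 others, and 2 of the 3 estrus values were near the detection floor. The mean was 40.1 ± 9.40 CPM (SD, n = 3) in proestrus and 2.53 ± 1.77 CPM in estrus, a ratio of 15.8 or, on the log2 scale, -3.96 ± 0.37 (SE, n = 3 and 3 uteri, adjusted p = 6.74e-05). Without estrus replicate 4, its highest estrus uterus, the log2 fold change was -4.66 (adjusted p = 0.000256). Idi1 shares 18.4% of its 31-base words with the pseudogene Gm13502, which had a mean of 0.376 counts. Fdps, which joins the isomers into farnesyl diphosphate, measured 38.5, 49.8 and 61 CPM in proestrus and 12.3, 6.81 and 9.55 CPM in estrus. The fall of 2.38 on the log2 scale (SE 0.28, adjusted p = 0.000326) had every estrus uterus below every proestrus one. Fdps shares 24.6% of its 31-base words with the overlapping gene model Gm43738 and 16.0% with the pseudogene Gm3571, to which no counts were assigned. With both summed into Fdps, the log2 fold change was -2.23 (adjusted p = 0.000445).

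Hmgcs1 and Acat2 supply the first intermediates from acetyl-CoA. Hmgcs1 (chr13:119690379-119708260) measured 47.0, 62.6 and 68.5 CPM in proestrus and 26.4, 15.9 and 18.2 CPM in estrus (log2 fold change -1.57 ± 0.26, adjusted p = 0.00196). Acat2 measured 49.3, 58.3 and 65.0 CPM in proestrus and 24, 26.1 and 18.6 CPM in estrus (log2 fold change -1.34 ± 0.23, adjusted p = 0.00215). In both genes the lowest proestrus uterus was replicate 1, and it still lay above every estrus uterus. Acat2 shares 43.7% of its words with Acat3, which had a mean of only 8.97 counts, and 13.2% with the neighbouring gene Tcp1, which had a log2 fold change of its own of -0.41 (adjusted p = 0.0355), so the level of Acat2 is uncertain. The 3 enzymes that phosphorylate and decarboxylate mevalonate had lower levels. Mvk fell from 22.4 ± 4.43 to 7.42 ± 2.77 CPM (log2 fold change -1.61 ± 0.30, adjusted p = 0.00368) and Mvd from 19.6 ± 3.90 to 7.65 ± 0.47 CPM (-1.35 ± 0.35, adjusted p = 0.0182). Pmvk, the step between them, had 15.0 and 8.02 CPM and missed the threshold (-0.89 ± 0.31, adjusted p = 0.0608), although its groups did not overlap.

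Squalene and lanosterol are made by Fdft1, Sqle and Lss. Sqle, a rate-limiting monooxygenase, measured 18.7, 27.3 and 30.7 CPM in proestrus and 5.53, 5.68 and 2.73 CPM in estrus. Its log2 fold change was -2.48 ± 0.37 (adjusted p = 0.00113), the second steepest fall among the 39 genes. Lss, lanosterol synthase, fell from 16.2 ± 0.59 to 5.02 ± 1.99 CPM (-1.68 ± 0.37, adjusted p = 0.00866), although 97.3% of its counts came from transcripts annotated as retaining an intron. Fdft1, squalene synthase, did not follow. It measured 34.5, 58.3 and 63.5 CPM in proestrus and 36.2, 46.6 and 42.3 CPM in estrus, and these overlap (-0.32 ± 0.21, adjusted p = 0.323). Fdft1 shares 17.6% of its words with the abundant opposite-strand gene Ctsb, the lysosomal protease cathepsin B. Ctsb itself measured 939 CPM in proestrus and 1681 CPM in estrus (log2 fold change 0.84, adjusted p = 0.00295), and its part in the Fdft1 counts was not tested.

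Among the later enzymes that turn lanosterol into cholesterol, Cyp51, the lanosterol demethylase, measured 47.0, 63.7 and 71.0 CPM in proestrus and 9.21, 20.4 and 13.2 CPM in estrus. No estrus uterus reached even the lowest proestrus one, and the log2 fold change was -2.08 ± 0.27 (adjusted p = 0.000449). Dhcr7, which carries out the last reduction to cholesterol, measured 15.3, 9.63 and 10.6 CPM in proestrus and 2.46, 2.27 and 3.18 CPM in estrus (-2.12 ± 0.36, adjusted p = 0.00215). Its estrus values rest on 4, 4 and 7 counts, near the floor of 3 counts. The C4-demethylation enzymes fell together: Msmo1 from 31.1 ± 9.34 to 9.40 ± 1.23 CPM (adjusted p = 0.00484), Nsdhl from 18.7 ± 0.99 to 9.24 ± 0.74 CPM (adjusted p = 0.0152) and Hsd17b7 from 11.1 ± 2.16 to 3.74 ± 1.89 CPM (adjusted p = 0.024). Only 41.3% of the Msmo1 counts came from a transcript annotated as protein coding, and 14.4% came from transcripts annotated as retaining an intron. Ebp and Sc5d, which act on the double bonds of the ring, had log2 fold changes of -0.34 ± 0.20 and -0.40 ± 0.27 and overlapping groups, and 85.7% of the Ebp counts came from a transcript annotated as retaining an intron. Ggps1, which leads away from sterols to protein prenylation, had a log2 fold change of -0.26 ± 0.19. Tm7sf2, a sterol reductase, measured 27.3 ± 0.92 CPM in proestrus and 34.9 ± 2.55 CPM in estrus (0.36 ± 0.15, adjusted p = 0.123). Of the counts assigned to Tm7sf2, 86.4% came from its transcript Tm7sf2-205 (chr19:6067163-6068373), which overlaps the end of the same-strand gene Vps51, so they may not stand for the reductase.

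The regulators split. Srebf2 measured 39.6, 42.8 and 37.8 CPM in proestrus and 17.2, 16.5 and 13.6 CPM in estrus, with a wide gap between the groups. Its log2 fold change was -1.35 ± 0.28 (adjusted p = 0.00567). Stard4, a carrier that moves cholesterol between membranes, measured 31.1, 47.6 and 39.3 CPM in proestrus and 6.14, 14.2 and 11.8 CPM in estrus (-1.86 ± 0.30, adjusted p = 0.00155). The 2 INSIG genes moved in opposite directions. Insig1 fell from 35.1, 49.2 and 60.5 CPM to 28.9, 26.1 and 33.6 CPM, which was -0.71 ± 0.20 on the log2 scale (adjusted p = 0.0266). Insig2 rose from 28.9, 20.3 and 25.7 CPM to 43.6, 55.1 and 51.4 CPM (1.00 ± 0.24, adjusted p = 0.0129). Srebf1, the paralog that favours fatty acid genes, measured 26.8 ± 3.70 CPM in proestrus, 24.7 ± 4.32 in estrus, 26.2 ± 5.78 in metestrus and 25.5 ± 7.10 in diestrus, with an F test adjusted p of 0.976. Scap had a log2 fold change of -0.54 ± 0.27 (adjusted p = 0.192).

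Fatty acid synthesis moved less. Of its 6 genes 2 fell, none rose and 4 did not pass the test, with a median log2 fold change of -0.46. Elovl6, which elongates palmitate, measured 29.4, 30.5 and 40.8 CPM in proestrus and 8.60, 15.3 and 15.9 CPM in estrus (-1.32 ± 0.27, adjusted p = 0.00521), with a gap between the groups. Acaca, acetyl-CoA carboxylase, measured 24.1 ± 3.95 and 15.0 ± 0.89 CPM (-0.68 ± 0.20, adjusted p = 0.0331). Counts scaled from the deposited TPM gave Acaca a log2 fold change of 0.34 instead. Acaca shares 31.7% of its 31-base words with the pseudogene Gm5182, to which no counts were assigned. Of the Acaca counts 17.6% came from a transcript annotated as retaining an intron. Fasn, fatty acid synthase, measured 62.3, 67.4 and 64.5 CPM in proestrus and 66.9, 84.0 and 71.4 CPM in estrus (0.19 ± 0.13, adjusted p = 0.348). Acly, which makes the acetyl-CoA used by both pathways, had a log2 fold change of -0.48 ± 0.16 (adjusted p = 0.061) without overlap. The desaturases Scd1 and Scd2 had log2 fold changes of 0.19 ± 0.30 and -0.45 ± 0.20.

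On the efflux side 3 of 5 genes rose in estrus and none fell. Abca1, which exports cholesterol to lipid-poor apolipoproteins (chr4:53030787-53159895, minus strand), measured 30.6, 15.0 and 15.1 CPM in proestrus and 150, 194 and 153 CPM in estrus. It measured 116, 37.6 and 103 CPM in metestrus and 59.9, 42.2 and 66.3 CPM in diestrus. The estrus uteri were thus the 3 highest of 12 and the proestrus uteri the 3 lowest. The estrus mean of 166 ± 24.3 CPM was 8.19 times the proestrus mean of 20.2 ± 8.97 CPM (log2 fold change 3.04 ± 0.38, adjusted p = 0.000382). Mylip rose from 32.3, 37.5 and 19.1 CPM to 80.5, 81.8 and 92.3 CPM (1.52 ± 0.27, adjusted p = 0.0028), and Abcg1, which loads cholesterol onto mature lipoproteins, from 64.6, 53.0 and 62.0 CPM to 123, 163 and 107 CPM (1.13 ± 0.22, adjusted p = 0.00395). Their groups did not overlap either. The receptor genes themselves did not pass the test: Nr1h2 had 30.9 ± 3.25 and 41.5 ± 5.48 CPM (0.42 ± 0.18, adjusted p = 0.123), and Nr1h3 lay between 3.64 and 9.09 CPM in these 6 uteri (adjusted p = 0.916).

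The 3 genes of esterification and lysosomal export rose as well. Npc2, the soluble lysosomal cholesterol carrier, measured 241, 241 and 220 CPM in proestrus and 513, 538 and 471 CPM in estrus (log2 fold change 1.12 ± 0.22, adjusted p = 0.00451). Its membrane partner Npc1 rose from 14.6 ± 2.20 to 26.1 ± 5.77 CPM (0.84 ± 0.25, adjusted p = 0.0372). Of the Npc1 counts 97.7% came from transcripts annotated as retaining an intron, and 75.0% from 1 of these, at the gene's 3' end. Soat1, which stores cholesterol as esters, rose from 39.4 ± 3.28 to 59.8 ± 5.04 CPM (0.60 ± 0.17, adjusted p = 0.0295).

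**Figure D2:**
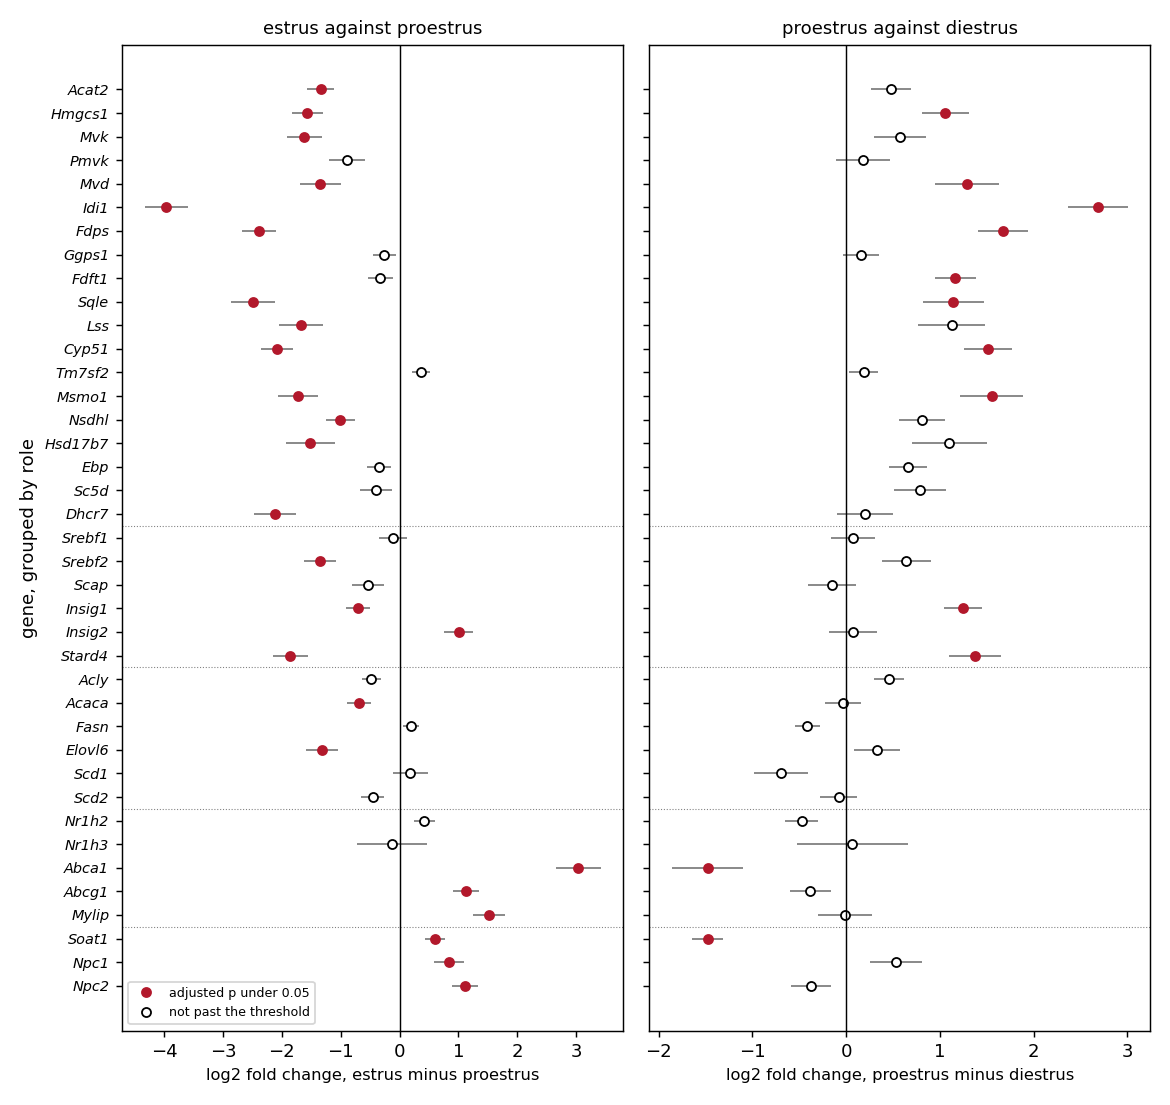
Log2 fold change (horizontal axis) of each gene in estrus minus proestrus (left) and proestrus minus diestrus (right), with bars of 1 SE; filled points have an adjusted p under 0.05. On the left all filled points of the sterol synthesis block lie left of 0, and those of the bottom 2 blocks lie between 0.60 and 3.04.

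Of these 25 calls, 17 were kept in each of the 12 fits that left out 1 uterus, among them those of Idi1, Fdps, Cyp51, Sqle, Srebf2, Abca1, Mylip and Npc2. The 8 that were lost in 1 or more fits had adjusted p from 0.0129 (Insig2) to 0.0372 (Npc1) with all 12 uteri. Nsdhl lost its call without proestrus replicate 3 (adjusted p = 0.0557). Hsd17b7 lost it without that uterus (0.0965) and without estrus replicates 3 (0.0829) or 4 (0.0841). Mvd lost it without proestrus replicate 2 (adjusted p = 0.0721) or any 1 estrus uterus (0.0519 to 0.0571). For the INSIG genes, Insig1 lost its call without proestrus replicates 2 or 3 or estrus replicates 3 or 4 (adjusted p up to 0.129), and Insig2 without proestrus replicate 2 (0.0541) or estrus replicate 4 (0.0569). Acaca lost its call without proestrus replicates 1 or 3 or any 1 estrus uterus (adjusted p up to 0.133). Soat1 and Npc1 lost theirs without any 1 proestrus uterus or estrus replicates 4 or 5 (up to 0.12 and 0.167), and Npc1 also without diestrus replicate 4 (0.0508).

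Markers of dividing cells and of macrophages moved with these genes between the same uteri. The summed level of 8 proliferation markers ran from 415 to 622 CPM in proestrus and from 139 to 153 CPM in estrus, and 6 of the 8 were lower by the same test. The summed level of 7 macrophage markers ran from 300 to 348 CPM in proestrus and from 736 to 786 CPM in estrus, and 7 of 7 were higher, including Csf1r (55.4 and 143 CPM) and Lyz2 (89.0 and 260 CPM). Of 10 epithelial markers 1 was higher and 1 lower, with sums from 1732 to 2345 CPM in proestrus and from 1448 to 1785 CPM in estrus. Of 6 smooth muscle markers 2 were higher and none lower, and of 8 stromal markers 1 was higher and 2 lower. Of 8 tested clock genes 1 was called, Nr1d1, which was higher in estrus. The part of proliferating cells, macrophages and the other cell types in the sterol and efflux results was not tested.

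**Figure D3:**
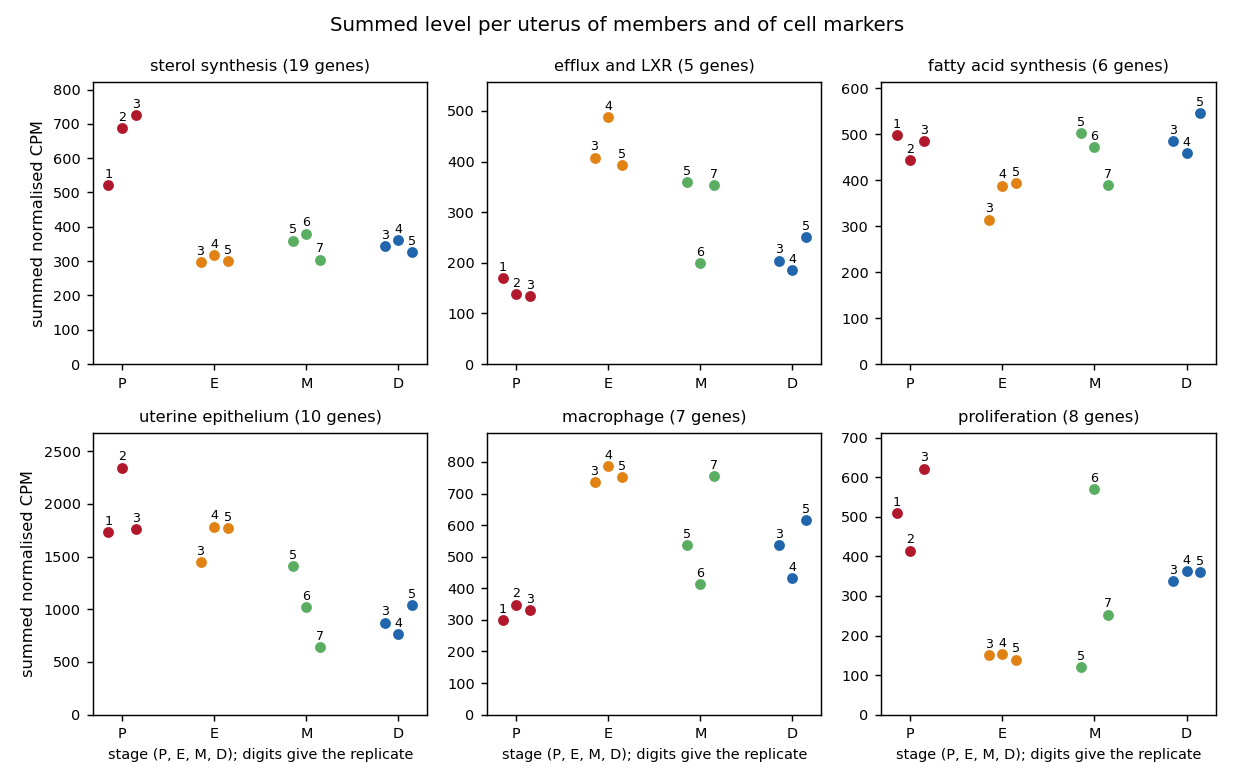
Summed normalised CPM per uterus (points, labelled with the replicate number) by stage for 3 groups of the 39 genes (top) and 3 marker lists (bottom). Sterol synthesis sums lie between 520 and 725 CPM in proestrus and between 296 and 317 CPM in estrus, and the proliferation sums fall with them, while the efflux and macrophage sums are lowest in proestrus.

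From estrus to metestrus few genes changed: 3 of the 39 were higher and 1 was lower, where 2.83% of all genes tested were higher and 4.73% lower. The 3 that rose were sterol synthesis genes, whose median log2 fold change was 0.40. Dhcr7 returned to 12.4, 12.5 and 8.29 CPM in metestrus, against 2.46, 2.27 and 3.18 CPM in estrus, with no overlap (2.02 ± 0.37, adjusted p = 0.00573). Idi1 rose from 2.53 to 8.32 CPM (1.69 ± 0.43, adjusted p = 0.0305) and Acat2 from 22.9 to 42.0 CPM (0.88 ± 0.23, adjusted p = 0.0376). Npc1 fell from 26.1 to 12.7 CPM (-1.03 ± 0.26, adjusted p = 0.0304). Only the Dhcr7 call was kept in each of the 12 fits that left out 1 uterus. The count of 4 became 2 when estrus replicate 3 or 4 was left out, and 1 when estrus replicate 5 or metestrus replicate 6 was. Idi1 lost its call without estrus replicates 3 (adjusted p = 0.0962) or 5 (0.12) or metestrus replicate 6 (0.0946). Without estrus replicate 4 the Idi1 log2 fold change was 2.39 (adjusted p = 0.0153).

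In the same comparison 3 of 8 proliferation markers were higher in metestrus, and 3 of 6 smooth muscle and 2 of 7 macrophage markers were lower. Of 10 epithelial markers 4 were lower and 1 higher, and of 8 stromal markers 1 was lower and 1 higher. The part of these cells was not tested. The metestrus uteri lay far apart for several of these genes and over all genes. Their libraries correlated with one another at 0.968 to 0.972 over all genes (log2 of CPM plus 1), against 0.9789 or more within each other stage. Each correlated most with a library of another stage. For metestrus replicate 5 this was estrus replicate 5 (0.975), for replicate 6 diestrus replicate 3 (0.980) and for replicate 7 diestrus replicate 4 (0.975). Replicate 6 had an Abca1 level of 37.6 CPM and an Npc2 level of 226 CPM, against 103 or more and 388 or more in the other two, and its Srebf2 level of 39.5 CPM lay in the proestrus range. Its proliferation sum was 570 CPM, against 120 in replicate 5 and 253 in replicate 7. Replicate 7 had the lowest value of the 3 in 10 of the 13 sterol synthesis genes called in the F test. The labels gave no account of these differences, and comparisons with metestrus carry the spread they bring.

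Diestrus against metestrus gave 0 calls among the 39 genes in edgeR, DESeq2 and limma-voom alike, where 0.133% of all genes tested were higher and 0.0913% lower. At an unadjusted p under 0.05 there were 4 (Elovl6, Abcg1, Mylip and Soat1), with adjusted p of 0.21 or more. Soat1 had the smallest, with 93.2, 57.7 and 76.3 CPM in metestrus and 103, 121 and 105 CPM in diestrus (log2 fold change 0.53 ± 0.16, adjusted p = 0.21).

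Proestrus against diestrus closes the cycle. Here 10 of the 39 genes were higher in proestrus and 2 were lower, where 4.62% of all genes tested were higher and 3.91% lower. All 19 sterol synthesis genes had a positive log2 fold change, with a median of 1.06, and 8 passed the test: Hmgcs1, Mvd, Idi1, Fdps, Fdft1, Sqle, Cyp51 and Msmo1. Idi1 was 6.47 times higher in proestrus (log2 fold change 2.69 ± 0.32, adjusted p = 0.000257), Fdps 3.20 times (1.67 ± 0.27, adjusted p = 0.00185) and Cyp51 2.86 times (1.51 ± 0.26, adjusted p = 0.00263). Fdft1 passed here, with 25.7, 21.6 and 22.5 CPM in diestrus below every proestrus uterus (1.16 ± 0.22, adjusted p = 0.0052). Of the regulators, Insig1 (1.25 ± 0.20, adjusted p = 0.00219) and Stard4 (1.37 ± 0.28, adjusted p = 0.00815) were higher in proestrus. Insig1 had its lowest stage in diestrus, at 21.8, 19.6 and 19.7 CPM. Of the 6 fatty acid genes 0 passed the test (edgeR), and 3 had an unadjusted p under 0.05. Dhcr7 had 11.8 ± 3.03 and 10.2 ± 1.94 CPM with overlap (adjusted p = 0.762).

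Lower in proestrus were Abca1 (-1.48 ± 0.38, adjusted p = 0.0272) and Soat1. Soat1 had 39.1, 42.8 and 36.3 CPM in proestrus against 103, 121 and 105 CPM in diestrus, a ratio of 2.79 in favour of diestrus (-1.48 ± 0.17, adjusted p = 0.00022). Its stage means of 39.4, 59.8, 75.7 and 110 CPM followed the order of the cycle, and it was the 1 gene of its group with its highest mean in diestrus. The neighbouring steps from estrus to metestrus and from metestrus to diestrus did not pass the test in Soat1. Of the 12 calls 7 were kept in each fit that left out 1 uterus. Those of Hmgcs1, Mvd, Sqle, Msmo1 and Abca1 were lost in 1 or more, with adjusted p up to 0.177 (Sqle, without diestrus replicate 4) and, for Abca1, up to 0.124 (without proestrus replicate 2). Without proestrus replicate 3 all 5 were lost and the count was 7. Of the 10 epithelial markers 7 were higher in proestrus than in diestrus and 3 lower, with sums from 767 to 1041 CPM in diestrus. Lower in proestrus too were 2 of 7 macrophage and 3 of 8 stromal markers, and none of either list was higher. The part of these cells in this comparison was not tested. Of the 8 proliferation markers 0 passed the test here (edgeR) and 2 had an unadjusted p under 0.05, with sums from 338 to 363 CPM in diestrus.

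**Figure D4:**
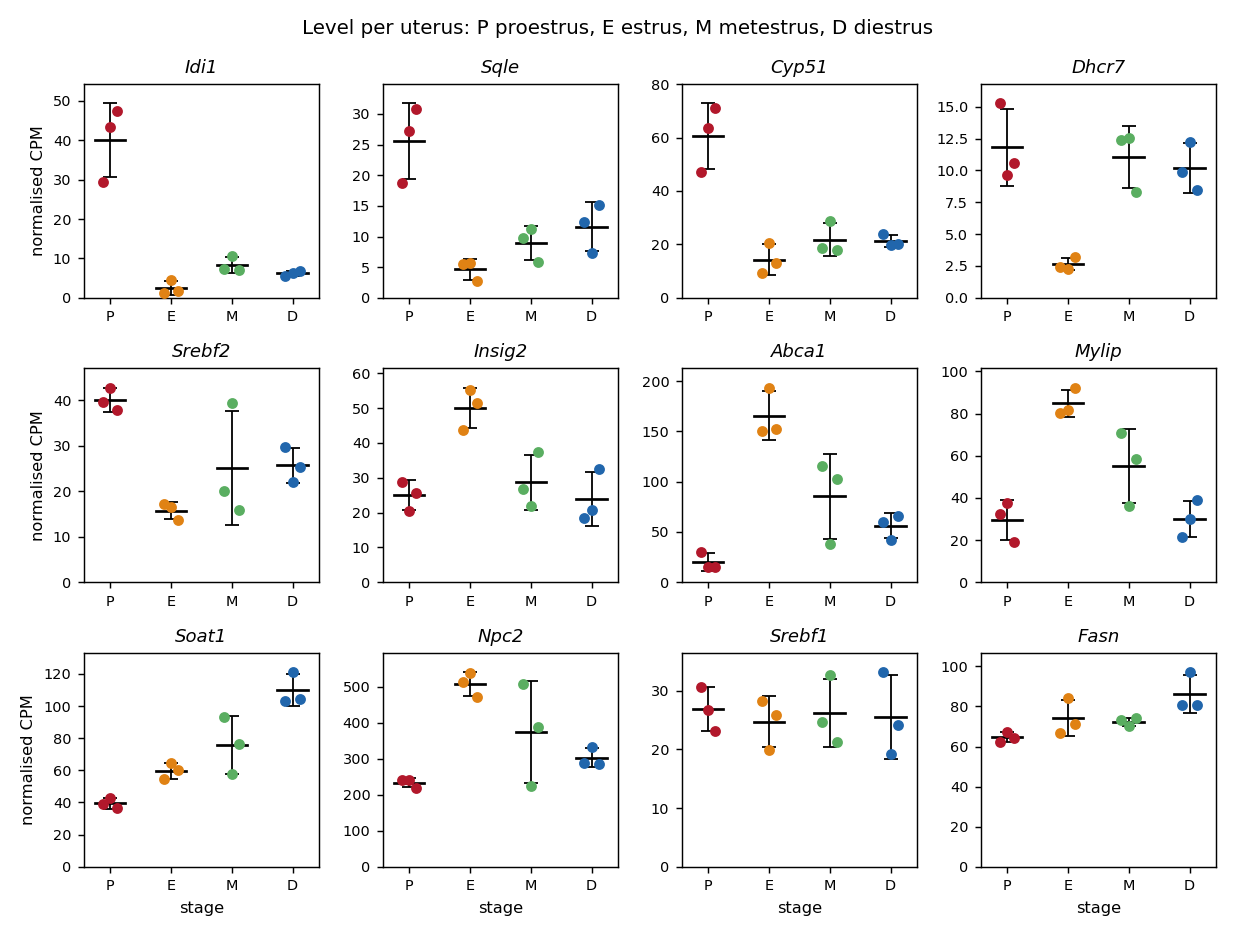
Normalised CPM of 12 genes (vertical axes, from 0) in each uterus (points) by stage, with the mean (bar) and 1 SD (error bars, n = 3). Idi1, Sqle and Cyp51 peak in proestrus, Dhcr7 is low only in estrus, Insig2, Abca1, Mylip and Npc2 peak in estrus, Soat1 has its highest mean in diestrus, and Srebf1 and Fasn did not pass the F test.

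The comparisons across non-adjacent stages used the same libraries as those above. In metestrus against proestrus 3 of the 39 genes were higher and 10 lower, where 2.49% of all genes tested were higher and 1.82% lower. The lower ones were 8 sterol synthesis genes (Hmgcs1, Mvk, Mvd, Idi1, Fdps, Sqle, Cyp51 and Msmo1) with Insig1 and Stard4, and the higher ones were Abca1 (2.09 ± 0.38, adjusted p = 0.0115), Abcg1 and Soat1. The calls of Idi1 (-2.27 ± 0.31, adjusted p = 0.00379), Fdps and Cyp51 were the 3 kept in every fit that left out 1 uterus, and that of Abca1 was lost without proestrus replicates 2 (0.0665) or 3 (0.06). Of the 10 epithelial markers 3 were lower and 1 higher in metestrus than in proestrus, with sums from 644 to 1413 CPM in metestrus. In the same comparison 2 of 7 macrophage and 2 of 8 stromal markers were higher, and the part of these cells was not tested. The count of 13 became 4 without proestrus replicate 2, 3 without proestrus replicate 3 and 7 without metestrus replicate 7. In diestrus against estrus 7 of the 39 genes were higher and 8 lower, where 9.73% of all genes tested were higher and 13% lower. Higher were Acat2, Mvk, Sqle and Dhcr7 (1.91 ± 0.36, adjusted p = 0.00236) of sterol synthesis, Acaca and Elovl6 (0.99 ± 0.27, adjusted p = 0.0182) of fatty acid synthesis, and Soat1 (0.87 ± 0.16, adjusted p = 0.00219). Lower were Fdft1, Tm7sf2, Insig2 (-1.08 ± 0.24, adjusted p = 0.00609), Abca1 (-1.56 ± 0.34, adjusted p = 0.00511), Abcg1, Mylip (-1.51 ± 0.27, adjusted p = 0.00169), Npc1 (-1.37 ± 0.26, adjusted p = 0.00255) and Npc2. Ctsb, which shares sequence with Fdft1, was lower in diestrus too (-1.08, adjusted p = 0.00034), and its part in the Fdft1 counts was not tested. Tm7sf2 and Acaca did not pass the F test (adjusted p = 0.0634 and 0.0521). Of the 15 calls among the 39 genes, 6 were kept in every fit that left out 1 uterus, those of Dhcr7, Insig2, Abca1, Mylip, Soat1 and Npc1. The adjusted p of Elovl6 rose to 0.0689 without estrus replicate 3 and to 0.0718 without diestrus replicate 3. Counts scaled from TPM gave Acaca a log2 fold change of -0.40 here. Of the 10 epithelial markers 8 were lower in diestrus than in estrus and 1 was higher, with sums from 767 to 1041 CPM against 1448 to 1785 CPM. Lower too were 3 of 7 macrophage markers, with sums from 433 to 615 CPM in diestrus, and 3 of 6 smooth muscle markers, while 5 of 8 proliferation markers were higher. Of 8 stromal markers 2 were higher and 1 lower. Their part in this comparison was not tested either.

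The stages can be ordered for the genes described most fully. For Idi1 the order of means was proestrus, metestrus, diestrus and estrus, where neither metestrus and diestrus, with 8.32 ± 2.02 and 6.19 ± 0.67 CPM, nor diestrus and estrus differed by the test. For Abca1 it was estrus, metestrus, diestrus and proestrus, where diestrus and proestrus were the 1 pair of neighbours in that order to pass the test, and metestrus overlapped diestrus through replicate 6. For Dhcr7 estrus stood below the other 3 stages, which overlapped one another.

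Other genes of the same pathways were counted from lists. Of 18 other sterol genes 15 were tested, and in estrus against proestrus 5 were lower and 2 higher. Lipa, the lysosomal esterase that frees cholesterol for export, rose from 35.1 ± 8.70 to 70 ± 11.2 CPM in estrus (adjusted p = 0.00981). None of 12 other genes of SREBP processing and its partner factors passed the test in that comparison (edgeR), and 2 had an unadjusted p under 0.05. Of 18 tested other fatty acid genes 1 was higher and 1 lower. Of 9 tested other LXR and lipoprotein genes 3 were higher and none lower, among them Nceh1, a cholesteryl ester hydrolase, with 16.1 ± 6.33 and 71.6 ± 6.90 CPM (2.15 ± 0.36, adjusted p = 0.002). Thrsp, a fatty acid synthesis cofactor, had 3.71 ± 0.56 CPM in estrus and 38.9 ± 7.83 CPM in diestrus (3.35 ± 0.48, adjusted p = 0.000356).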

How the data were processed

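The authors deposited 1 table per uterus with estimated counts and TPM for 119414 transcripts, per the file headers. FastQC, kallisto and DESeq2 are named in the submitters' processing notes, with no options; the transcript set, the genome build and the use of strand are not given in the sources used here. The deposited TPM values were used only for an alternative. Without molecular identifiers in the protocol, PCR copies are counted.

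Transcripts were matched by identifier to GENCODE M21 (116640 of 119414), whose GRCm38 positions are given. The rest held 0.619% to 0.774% of counts and were left out. Estimated counts were summed per gene and rounded to whole numbers. edgeR 4.0.16 (R 4.3.3) was used: filterByExpr by stage, TMM, and a quasi-likelihood fit of all 12 libraries with 1 coefficient per stage and no covariate. An F test and 6 two-sided contrasts were adjusted by Benjamini-Hochberg over 12052 genes. Alternatives used DESeq2 1.42.0, limma-voom (limma 3.58.1), other scalings and filters. The code was tested on simulated data. Every one of the 39 genes was accounted for, and genes of other lists were named by the smallest F test p. The 39 genes and the lists were chosen with earlier results of these data known. Some genes of the other lists are counted but not reported here.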

Additional observations from a re-analysis of the deposited data

How the results depend on the processing

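Of 93 calls among the 39 genes (69 in pairs of stages, 24 in the F test), 52 were kept in all 12 fits that left out 1 uterus. Over those fits the count of called genes ran from 21 to 26 in the F test, from 19 to 27 in estrus against proestrus, from 1 to 6 in metestrus against estrus, from 7 to 14 in proestrus against diestrus, from 3 to 16 in metestrus against proestrus and from 10 to 18 in diestrus against estrus. Diestrus against metestrus stayed at 0 in every fit. Requiring a mean of at least 50 counts left 20 of the 39 genes to test, and 12 were then called in the F test, 11 in estrus against proestrus, 1 in metestrus against estrus, 7 in proestrus against diestrus, 6 in metestrus against proestrus and 10 in diestrus against estrus. With counts scaled from TPM, 0 were called in metestrus against estrus, 8 in metestrus against proestrus and 9 in diestrus against estrus. Of 90 calls compared under that scaling, 68 were kept, 20 were lost and 2 reversed. Acaca reversed, to 0.34 in estrus against proestrus and -0.40 in diestrus against estrus, and the cause was not tested. Fitting the 2 stages alone gave 1 in metestrus against estrus and 1 in metestrus against proestrus, with fewer samples. A replicate block over all 12 libraries gave 13 in estrus against proestrus, 0 in metestrus against estrus and 1 in metestrus against proestrus, and 15 in diestrus against estrus when those stages, which share all their numbers, were fitted alone, where 12 of the 15 calls were kept and those of Mvk, Sqle and Tm7sf2 lost. Deviations of same-numbered uteri of these stages from their stage means correlated at -0.04, 0.01 and -0.02. For same-numbered uteri of other pairs of stages the values ran from -0.03 to 0.16. With only 3 uteri per stage, these values cannot decide what a shared number stands for. Scaling by library totals moved the share of higher calls over all genes from 42.7% to 51.8% in diestrus against estrus, with 8 higher and 7 lower among the 39, and from 59.3% to 81.2% in diestrus against metestrus. DESeq2, limma-voom and the size factors of DESeq2 left each of these counts within 1.5 times the main one. In estrus against proestrus some calls kept in every fit that left out 1 uterus were lost in an alternative. For these the highest adjusted p over the alternatives was 0.153 for Abcg1 and Lss, 0.121 for Mvk, 0.0934 for Dhcr7 and 0.078 for Srebf2.

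Counting noise limits genes near the floor, such as Idi1, Dhcr7 and Hsd17b7 in estrus. No label gave a batch or a collection time, so neither can be separated from stage.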
